A study of Caenorhabditis elegans with 6 samples.

Results

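The *ugt* genes of *C. elegans* encode UDP-glycosyltransferases, the family that also holds the UDP-glucuronosyltransferases of mammals. Members were chosen by name, as every gene whose symbol starts with *ugt-*, and 62 of the 17399 genes listed in the deposited tables met this rule. The enzymes sit in the membrane of the endoplasmic reticulum and move a sugar from a UDP-sugar onto a small, fat-soluble molecule, which makes it more soluble in water and easier to export. This conjugation is the phase II step of detoxification, after oxidation by cytochromes P450 and before export by ABC transporters, and glutathione S-transferases carry out another form of it. In worms the intestine is a main site of detoxification, glucose is a common sugar for the reaction, and nuclear receptors and the stress regulator SKN-1 are known to control parts of the response.

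RNA was sequenced from whole bodies of adult N2 worms, the wild-type laboratory strain, after 7 days at 20°C on NGM agar plates with 0.1 μM VK2 (vitamin K2) or on the same plates without it. The worms were synchronized young adults at the start and were moved to new plates daily to remove their progeny. There were 3 VK2 libraries (T1, T2, and T3) and 3 control libraries (C1, C2, and C3), and C1 and T1 are in one table and the other 4 in a second, so each level is compared only within its table. The labels do not say whether the libraries came from separate cultures, so the p-values measure the spread between these libraries, which may be technical. Each library is RNA of many worms and of all tissues, so fewer cells of a type and less RNA per cell cannot be told apart.

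Levels are given in FPKM (sequenced fragments scaled to transcript length and to the mapped fragments of the library), summed over the transcripts of a gene. The sources used here do not give read totals, so the depth of the libraries is unknown and no interval from counting is printed. Of the 62 members, 57 were listed in the first table, 60 in the second, and 55 in both. The test took genes whose FPKM averaged 1 or more across the 6 libraries, which left 49 members among 14191 genes. The other 13 members had FPKM values from 0 to 2.1, with a median of 0.587.

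One control library, C3, stood apart from the others in its table. Over all genes tested, the SD of the log2 differences between C2 and C3 was 0.695, against 0.292 between T2 and T3 and 0.295 between C2 and T3. Of 10 markers each, all were tested for germline and early embryo, hypodermis, neurons, and muscle, 9 for intestine, and 8 for sperm, and none of those tested was at 0 in a library. The summed FPKM of 10 germline and early embryo markers was 375 in C3 and from 701 to 877 in C2, T2, and T3, with 7 of the 10 in C3 at 0.5 times the lowest of the other libraries or less. The summed FPKM of 9 intestine markers was 1109 in C3 and from 846 to 975 in the others, and that of 10 hypodermis markers was 1238 in C3 and from 767 to 907. Because C3 is 1 of 3 controls, fitted differences are given with and without it.

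The family had no member that changed with VK2 past the test. Of the 49 members tested, 0 passed an adjusted p of 0.05 in limma with Benjamini-Hochberg adjustment, where 0.0% of all genes did, and the smallest adjusted p of a member was 1.0. The test in the form Ballgown uses also gave 0. At an unadjusted p below 0.05 there was 1 member, *ugt-6*, where 3.57% of all genes reached it. With the replicate number as a block, 2 members reached it, *ugt-6* and *ugt-13*, as did 4.14% of all genes. Without C2 there were 8, beside 11.2% of all genes, and without C1 or T1 there were 0, beside 1.35%. Without C3, 0 members passed the adjusted p, where 0.0141% of all genes did, and the smallest adjusted p of a member was 0.681. At an unadjusted p below 0.05 there were then 2, *ugt-6* and *ugt-50*, where 7.21% of all genes reached it.

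The direction of the family depended on C3. Differences are VK2 minus control on the scale of log2(FPKM + 1), which understates the change of genes with low levels. The median difference of the 49 members was -0.11, against 0.02 over all genes tested, and 15 members had a difference above 0, which 55.1% of all genes had. Without C3 the median was 0.04, against -0.04 over all genes, and 28 members were above 0, which 42.0% of all genes were. The sign of 15 members changed when C3 was left out, and the standard error became smaller for 45 of the 49. Neither count was taken over all genes, and C3 stood apart over all genes tested. These counts therefore describe the members only and cannot set the family apart from other genes. C3 was also left out after its values were seen, and the second table then holds 1 control. The standard errors and p-values without C3 thus rest on no spread between controls of that table and may be too small.

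By size of the fitted difference, 1 member, *ugt-6*, was at least 1.5 times higher with VK2, as were 3.33% of all genes. There were 5 members at least 1.5 times lower, *ugt-1*, *ugt-13*, *ugt-16*, *ugt-25*, and *ugt-41*, as were 1.68% of all genes. Without C3, *ugt-6* alone was at least 1.5 times higher, as were 2.5% of all genes, and 0 members were at least 1.5 times lower, as were 0.684% of all genes. Without C1 or T1, which leaves the second table to carry the comparison, 2 were higher (*ugt-6* and *ugt-53*) and 14 lower, beside 3.43% and 3.51% of all genes. Without C2 these counts were 2 and 11, beside 7.73% and 4.73%. None of these members passed the adjusted p with or without C3.

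**Figure D1:**
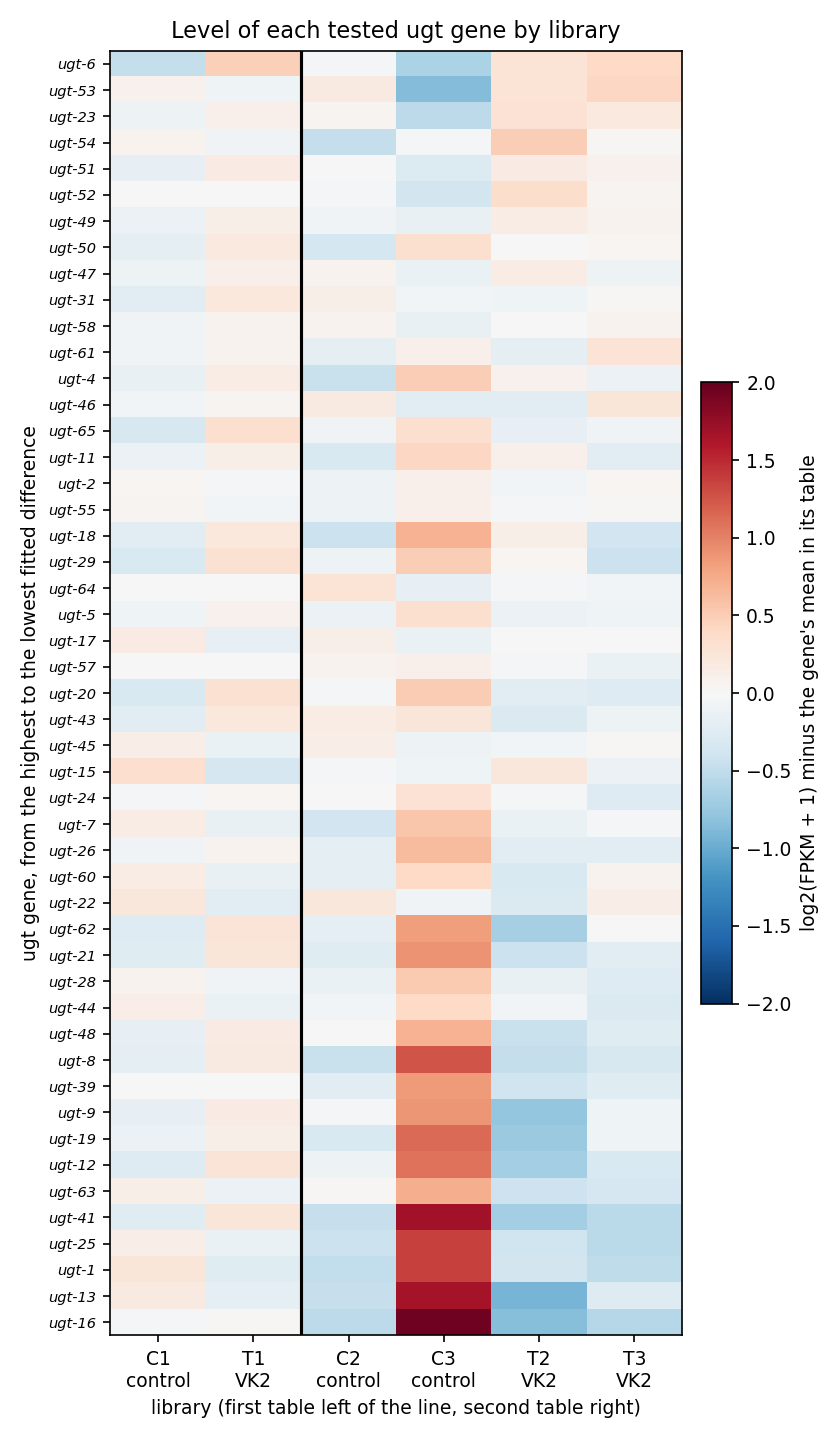
Heat map of the 49 tested *ugt* genes (vertical axis, from the highest to the lowest fitted difference) in each of the 6 libraries (horizontal axis), where color is log2(FPKM + 1) minus the mean of the gene in its table. Library C3 has the highest level of its table for 32 of the 49 genes, and the column of C3 is darkest at *ugt-16*, *ugt-13*, and *ugt-41*.

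The member with the largest difference above 0 was *ugt-6* (chromosome V, 12795484 to 12798154, minus strand, 8 exons). Its FPKM was 4.58 in C1 and 9.85 in T1 of the first table, and 4.81 in C2, 6.19 in T2, 6.82 in T3, and 2.81 in C3 of the second. In both tables every VK2 library was above every control library. The difference was 0.77 (SE 0.22), with an unadjusted p of 0.0102 and an adjusted p of 1.0 in limma, and without C3 it was 0.62 (SE 0.19), with an adjusted p of 0.681. As each library was left out in turn, the difference stayed between 0.62 and 0.97. With a pseudocount of 5 in place of 1 it was 0.47, under 1.5 times.

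Next to *ugt-6* on the same strand lie *ugt-4* and *ugt-5*, and C3 was not the lowest library for these neighbors. The FPKM of *ugt-4* was 5.56 in C1, 7.09 in T1, 0.847 in C2, 1.68 in T2, 1.33 in T3, and 2.54 in C3, so C3 was the highest of its table. For *ugt-5* it was 9.86 in C1, 11.3 in T1, 2.89 in C2, 2.88 in T2, 2.95 in T3, and 4.29 in C3, again with C3 the highest. The difference of *ugt-4* was 0.08 (SE 0.28), and 0.38 (SE 0.19) without C3. That of *ugt-5* was -0.08 (SE 0.21), and turned to 0.08 (SE 0.16) without C3.

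In 4 members the VK2 libraries lay above the controls of the same table in both tables, with no overlap, which held for 6.83% of all genes. Beside *ugt-6* these were *ugt-23*, *ugt-49*, and *ugt-51*. The FPKM of *ugt-23* (chromosome X, 9922910 to 9925173) was 27.4 in C1, 31.9 in T1, 25.7 in C2, 30.3 in T2, 28.4 in T3, and 16.9 in C3. Its controls spread more widely in the second table than the distance from C2 to the VK2 libraries, and the difference of 0.39 (SE 0.19) became 0.20 (SE 0.11) without C3.

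*ugt-49* (chromosome V, 10372325 to 10374245) had FPKM values of 28.1 in C1, 33.5 in T1, 16.2 in C2, 18.9 in T2, 18.0 in T3, and 15.3 in C3. Here C3 was close to C2, and the difference was 0.23 (SE 0.14) with C3 and 0.21 (SE 0.11) without it. For *ugt-51*, the FPKM was 9.58 in C1, 12.2 in T1, 3.14 in C2, 3.63 in T2, 3.38 in T3, and 2.41 in C3. Its difference was 0.28 (SE 0.18), and 0.20 (SE 0.16) without C3.

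*ugt-50* (chromosome X, 12691573 to 12695652) reached an unadjusted p below 0.05 only without C3. Its FPKM was 14.7 in C1, 19.5 in T1, 9.10 in C2, 12 in T2, and 12.3 in T3, with VK2 above control, but 15.1 in C3, above both VK2 libraries of its table. The difference was 0.16 (SE 0.22), and 0.39 (SE 0.12) without C3, with an unadjusted p of 0.0162 and an adjusted p of 0.681 in limma. With C2 left out instead, it was 0.0 (SE 0.21), so its size depended on which control of the second table was kept. The gene overlaps *nhr-26*, which encodes a nuclear hormone receptor, and the library kit was a stranded one, but the sources used here do not say whether reads were assigned by strand.

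*ugt-53* was the only tested member with C3 at 0.5 times the lowest of C2, T2, and T3 or less, which 6.0% of all genes were. Its FPKM was 0.677 in C3 and 2.48 in C2, 2.72 in T2, and 3.10 in T3, while in the first table C1, at 3.96, was above T1, at 3.40. The difference of 0.40 (SE 0.33) was 0.02 (SE 0.19) without C3. *ugt-52* was also lowest in C3, at 2.5, against 3.46 in C2, 4.78 in T2, and 3.69 in T3, with 3.28 in C1 and 3.19 in T1. Its difference was 0.25 (SE 0.21), and 0.11 (SE 0.19) without C3.

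*ugt-54* was lowest in C2 in its table. Its FPKM was 3.59 in C2, 7.92 in T2, 5.47 in T3, and 5.21 in C3, so that C3 and T3 were close, and in the first table C1, at 13.6, was above T1, at 12.2. The difference was 0.29 (SE 0.24), and 0.35 (SE 0.24) without C3.

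**Figure D2:**
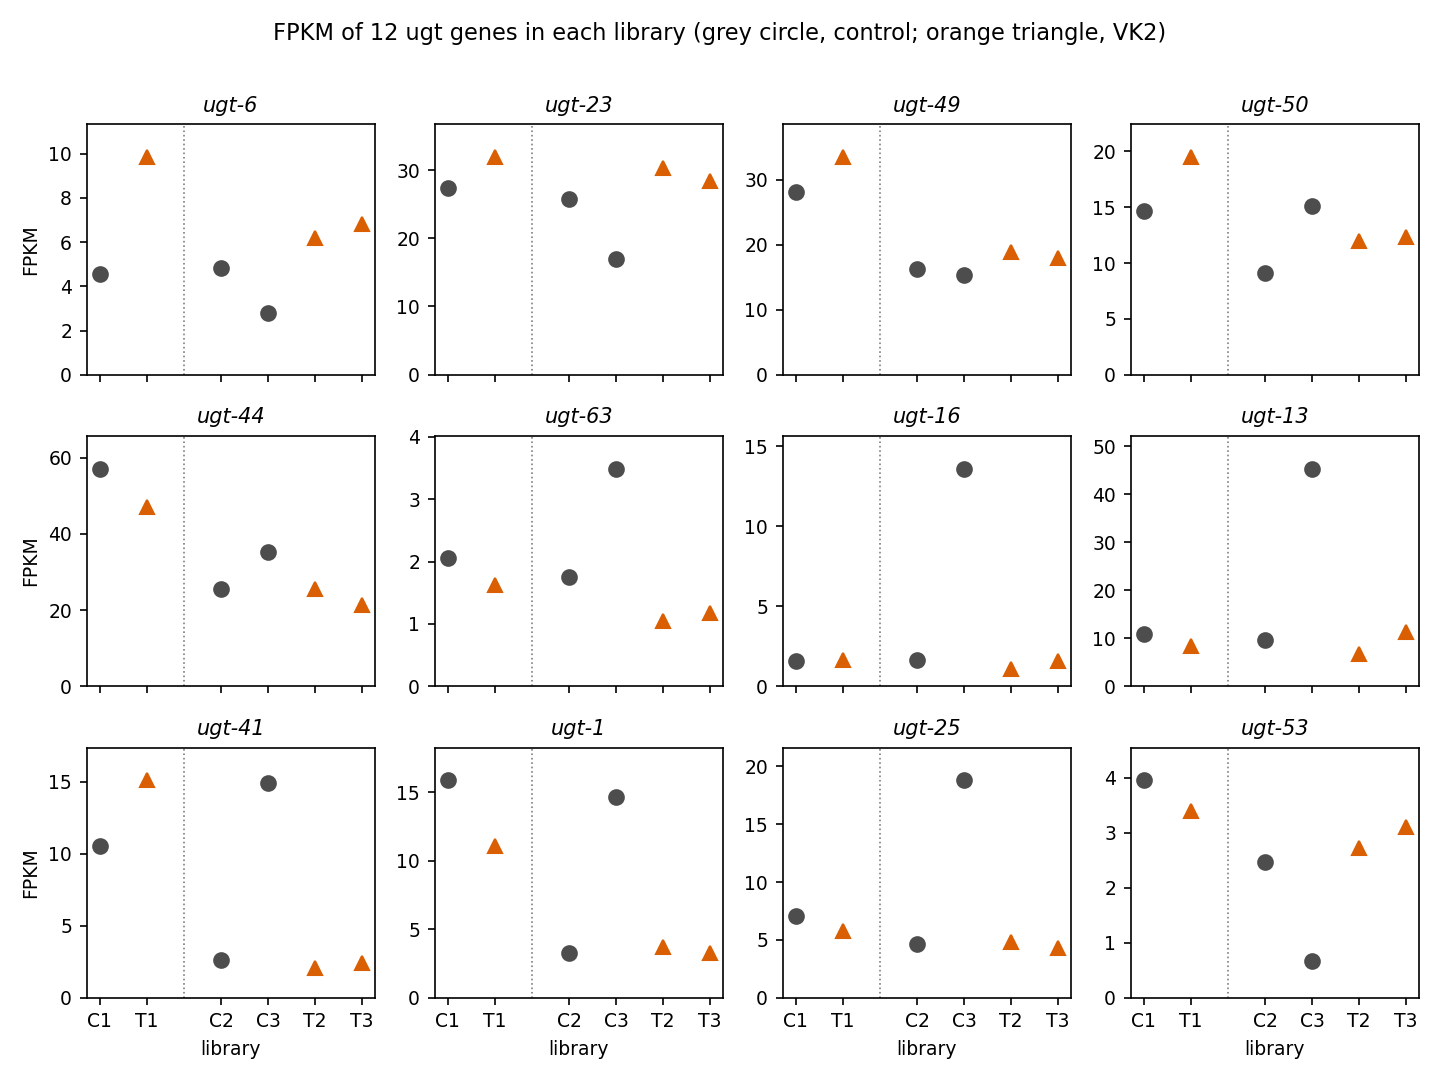
FPKM (vertical axis, starting at 0 and set for each gene) of 12 *ugt* genes in the 6 libraries (horizontal axis), with the first table left of the dotted line, controls as grey circles, and VK2 as orange triangles. The VK2 points of *ugt-6*, *ugt-23*, and *ugt-49* lie above the controls of their table, and in *ugt-16*, *ugt-13*, and *ugt-41* the point of C3 stands above the other 3 libraries of its table.

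The members furthest below 0 had in common a high level in C3. In 11 of the 49 members, or 22.4%, the FPKM in C3 was at least 2 times the highest of C2, T2, and T3, which held for 3.83% of all genes tested. These were *ugt-1*, *ugt-8*, *ugt-9*, *ugt-12*, *ugt-13*, *ugt-16*, *ugt-19*, *ugt-21*, *ugt-25*, *ugt-39*, and *ugt-41*. C3 was the highest library of the second table for 32 members, or 65.3%, and for 29.3% of all genes. C3 was singled out after its values were seen, so these shares are a description. C3 is also a control, so a high level there lowers a difference by arithmetic, and leaving C3 out raises it.

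The highest ratio was that of *ugt-16* (chromosome V, 12825024 to 12827432, plus strand, 7 exons). Its FPKM was 13.6 in C3 and 1.63 in C2, 1.09 in T2, and 1.55 in T3, and the first table held 1.56 in C1 and 1.63 in T1. C3 was 8.35 times the highest of the other libraries of its table, among which C2 was above T2 and T3. The difference of -0.94 (SE 0.63) was -0.09 (SE 0.21) without C3.

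*ugt-13* (chromosome V, 4908868 to 4911399, plus strand, 8 exons) had FPKM values of 10.9 in C1, 8.35 in T1, 9.56 in C2, 6.63 in T2, 11.2 in T3, and 45.3 in C3. T3 was above C2, so the groups overlapped in the second table even with C3 set aside. Its difference was -0.91 (SE 0.54), and -0.22 (SE 0.22) without C3. *ugt-12*, in the same run of genes, had 39.6 in C3 and 16.9 in C2, 10.9 in T2, and 14.4 in T3, but in the first table T1, at 18.5, was above C1, at 12.7. Its difference was -0.49 (SE 0.41), and -0.01 (SE 0.23) without C3.

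*ugt-41* (chromosome V, 7161068 to 7163595, minus strand) also went in opposite directions in the tables. Its FPKM was 10.5 in C1 and 15.1 in T1, but 2.61 in C2, 2.09 in T2, 2.43 in T3, and 14.9 in C3. The difference was -0.65 (SE 0.59), and 0.12 (SE 0.20) without C3. *ugt-1* (chromosome V, 10395663 to 10397817, plus strand) had 15.9 in C1, 11.1 in T1, 3.30 in C2, 3.71 in T2, 3.26 in T3, and 14.7 in C3. In the second table T2 was above C2, and the difference of -0.74 (SE 0.45) was -0.17 (SE 0.19) without C3.

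*ugt-25* had an FPKM of 18.8 in C3 and of 4.69 in C2, 4.86 in T2, and 4.31 in T3, with 7.03 in C1 and 5.74 in T1. The 3 other libraries of the second table lay close together, and the difference of -0.70 (SE 0.45) was -0.13 (SE 0.17) without C3. *ugt-25* overlaps *mlst-8*, a subunit of the TOR kinase complexes. *ugt-19* had 14.2 in C3, 4.62 in C2, 3.12 in T2, and 5.54 in T3, with 4.90 in C1 and 6 in T1. Its difference of -0.47 (SE 0.43) was 0.04 (SE 0.24) without C3.

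With C3 set aside, the levels of the family in the second table were close between the groups. Over the 49 members, the median ratio of T2 to C2 was 0.986, with a range from 0.294 to 2.21, and the median ratio of T3 to C2 was 0.994, with a range from 0.664 to 1.58. In the first table the median ratio of T1 to C1 was 1.12, with a range from 0.486 to 2.15, and T1 was above C1 in 32 members. No median ratio, and no share with T1 above C1, was taken over all genes, so these values describe the members only. T1 was at least 1.5 times C1 in 4 members, *ugt-6*, *ugt-20*, *ugt-29*, and *ugt-65*, as in 13.2% of all genes, and C1 was at least 1.5 times T1 in *ugt-15*, as in 5.69% of all genes. An interaction of VK2 and table in limma asked whether a member responded differently in the first and second tables, and there 0 members had an unadjusted p below 0.05, as 1.81% of all genes did, and 0 passed the adjusted p, as 0.0% of all genes did. The first table has 1 library per group, so the spread in this test came from the second table alone, C3 included.

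**Figure D3:**
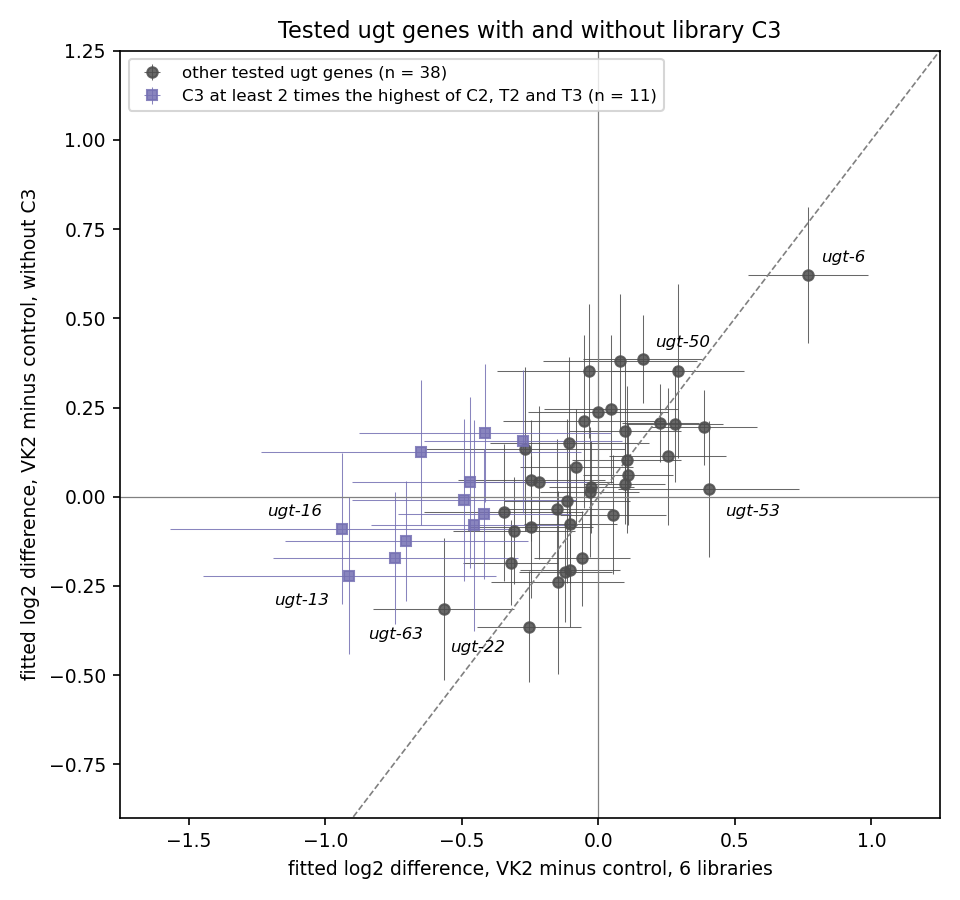
Fitted log2 difference (VK2 minus control) of the 49 tested *ugt* genes with all 6 libraries (horizontal axis) and without C3 (vertical axis), with bars of 1 standard error and a dashed line where both are equal. The 11 genes high in C3 (squares) lie left of 0 with all 6 libraries and near 0 without C3, and *ugt-6* stays at the upper right, at 0.77 and 0.62. The place of the squares follows in part by arithmetic, as C3 is a control.

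In 3 members the VK2 libraries lay below the controls of the same table in both tables, with no overlap, which held for 5.98% of all genes. These were *ugt-28*, *ugt-44*, and *ugt-63*. The FPKM of *ugt-63* was 2.05 in C1, 1.62 in T1, 1.76 in C2, 1.05 in T2, 1.17 in T3, and 3.49 in C3, and its difference of -0.57 (SE 0.26) was -0.32 (SE 0.20) without C3. *ugt-44* had 57.1 in C1, 47.0 in T1, 35.1 in C3, and 21.4 in T3, with C2 and T2 both at 25.4 after rounding. Its difference was -0.32 (SE 0.17), and -0.19 (SE 0.12) without C3. *ugt-28* had 13.2 in C1, 11.9 in T1, 4.55 in C2, 4.49 in T2, 4.11 in T3, and 7.77 in C3, where C2 and T2 were again close, and its difference of -0.31 (SE 0.22) was -0.10 (SE 0.15) without C3.

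*ugt-22* is known from work on anthelmintic drugs, where its expression depends on SKN-1 and affects how well albendazole acts on *C. elegans*. Its FPKM was 31.0 in C1, 22.6 in T1, 15 in C2, 10.1 in T2, 13.9 in T3, and 12 in C3. C3 lay between T2 and T3, so the groups overlapped in the second table. The difference was -0.25 (SE 0.19), and -0.36 (SE 0.16) without C3, with an unadjusted p of 0.0517 and an adjusted p of 0.681 in limma. Without C3 this was the lowest difference among the 49 members. The gene overlaps *srz-29*, which encodes a predicted chemoreceptor.

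A few members carried much of the RNA of the family. The 5 highest members of a library held between 32.5% and 36.8% of the summed FPKM of the 49, and *ugt-62* and *ugt-44* were among the 5 in all 6 libraries. In the first table *ugt-44* was highest, with a mean of 52.0, and in the second *ugt-62* was, with a mean of 40.7. *ugt-62* had FPKM values of 29.6 in C1, 43.0 in T1, 33.4 in C2, 23.5 in T2, 37.7 in T3, and 68.2 in C3, and its difference of -0.27 (SE 0.36) was 0.13 (SE 0.23) without C3. *ugt-58* was among the steadiest, with 21 in C1, 23.2 in T1, 26.1 in C2, 24.8 in T2, 26.0 in T3, and 22.1 in C3. Its groups overlapped, and its difference was 0.10 (SE 0.15), and 0.04 (SE 0.11) without C3.

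The summed FPKM of the 49 members was 509 in C1 and 549 in T1, and 369 in C2, 348 in T2, 376 in T3, and 571 in C3. As a share of all FPKM in the library, this was 0.0741% in C1 and 0.0838% in T1, and 0.0933% in C2, 0.0943% in T2, 0.0981% in T3, and 0.153% in C3. C3 was thus the highest by either measure in its table, with C2, T2, and T3 close to each other. The ratio of C3 to the highest of those 3 libraries, taken gene by gene, was 1.34 for the median member. Taken on summed markers, it was 1.14 for intestine, 1.36 for hypodermis, 1.13 for neurons, 0.891 for muscle, 0.575 for sperm, and 0.427 for germline and early embryo. These are unlike measures, and the sums of the members, 571 in C3 and 376 in T3, are the like measure for the marker ratios. The part of these tissues in the levels of C3 was not tested.

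In several members, *ugt-23* and *ugt-48* among them, the split between transcripts differed within a group. In *ugt-23*, the transcript C17G1.3b.2 had 10.9 in C2, 22.1 in T2, 0.244 in T3, and 0.198 in C3, and C17G1.3a had 14.8, 8.21, 28.1, and 16.7 in the same order. The transcript that was higher in T2 was the lower one in the other 3 libraries of the table. In *ugt-48* the transcript C18C4.3.1 had 12.1 in C2, 0.315 in T2, 10.3 in T3, and 19.2 in C3, and C18C4.3.2 had 0.559, 8.81, 0.336, and 2.24. In both genes T2 and T3 had the larger share in different transcripts. Other members also changed their larger transcript within a group. In *ugt-43*, F01D4.1a had 2.64 in C2 and 0.737 in C3, and F01D4.1b had 1.5 and 3.73. In *ugt-50*, T07C5.1d had 5.66 in T2 and 6.51 in T3, and T07C5.1e had 6.1 and 4.62.

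The members shared their place in the genome. Chromosome V held 38 of the 62, or 61.3%, and 25% of the protein-coding genes of the annotation, chromosome IV held 12, and the other chromosomes held from 1 to 5 each. With neighbors joined where less than 20 kb apart, 33 members lay in 10 runs. The longest run by number was that of *ugt-12*, *ugt-11*, *ugt-9*, *ugt-10*, *ugt-8*, *ugt-14*, and *ugt-13*, from 4887187 to 4911399 on chromosome V, and it held 9 protein-coding genes in all. Of its 5 tested members, 4 had C3 at least 2 times the other libraries of the table, and the fifth, *ugt-11*, had 3.70 in C3 and from 1.85 to 2.76 in the others. The next, from 7139477 to 7169281 on chromosome V, held *ugt-40*, *ugt-37*, *ugt-38*, *ugt-39*, *ugt-41*, and *ugt-36*, and both of its tested members, *ugt-39* and *ugt-41*, were high in C3.

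Of the 11 members high in C3, 10 were among the 25 tested members in runs and 1, *ugt-21*, was among the 24 outside them. Within a run the levels still differed. In *ugt-18*, *ugt-16*, and *ugt-15*, from 12820265 to 12830109 on chromosome V, C3 was 1.56, 8.35, and 0.598 times the highest of C2, T2, and T3. *ugt-1* and its neighbor *ugt-2* had ratios of 3.98 and 1.04, and the FPKM of *ugt-2* was between 11.9 and 14.9 in all 6 libraries. The sources used here do not say how reads that match several members were assigned, so the levels of close copies are uncertain, and 11 of the 62 members also overlap another protein-coding gene.

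**Figure D4:**
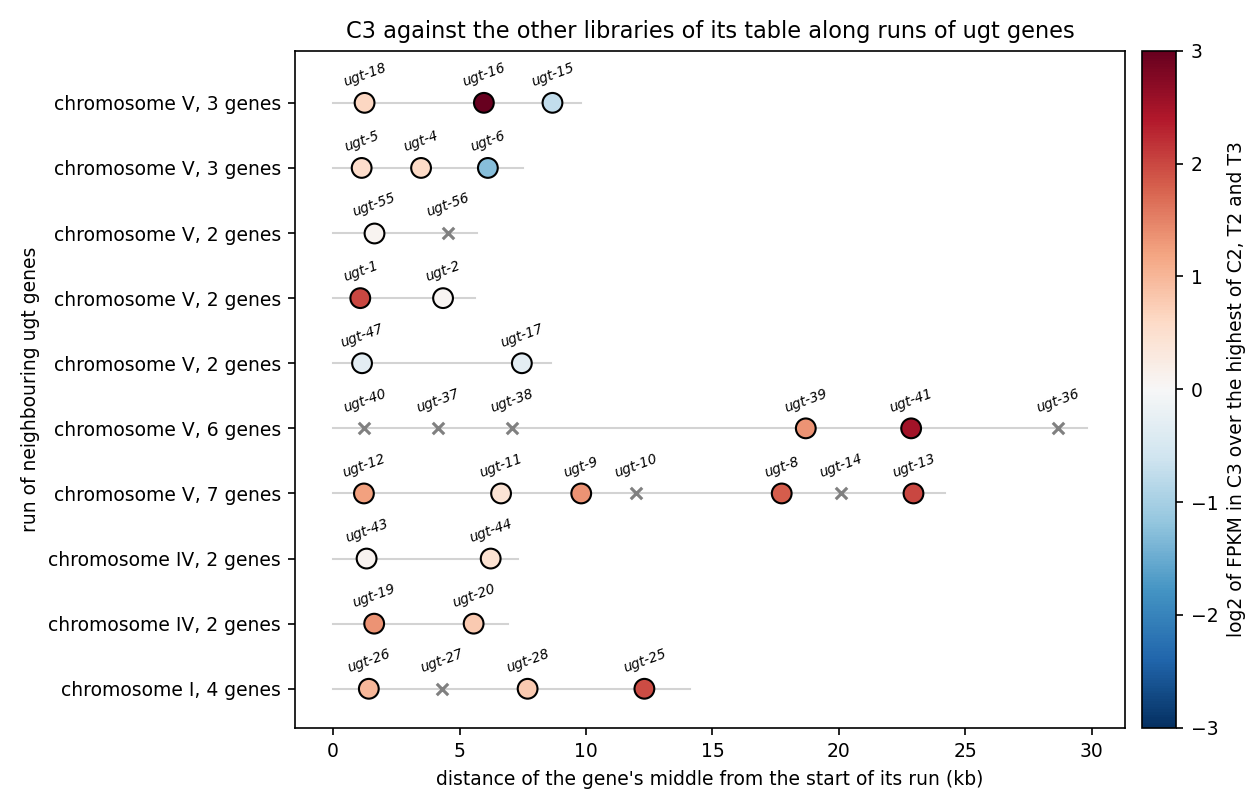
Runs of neighboring *ugt* genes (vertical axis) with the distance of each gene from the start of its run in kb (horizontal axis), where color is the log2 ratio of FPKM in C3 to the highest of C2, T2, and T3, and crosses are members not tested. The run of 7 genes has 4 members with C3 at least 2 times the others, and the runs of *ugt-16* and *ugt-6* hold members on both sides of 0.

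The other steps of detoxification were described with lists of genes, none of which had a member past the adjusted p. The 4 genes tested for the supply of UDP-sugars were *sqv-4*, the UDP-glucose dehydrogenase that makes UDP-glucuronic acid, *sqv-1*, the decarboxylase that turns it into UDP-xylose, *sqv-7*, a transporter of nucleotide sugars, and *gale-1*, the UDP-galactose 4-epimerase. Their differences were 0.06 (SE 0.19), 0.15 (SE 0.25), -0.05 (SE 0.19), and -0.13 (SE 0.16), so 0 of 4 reached 1.5 times in either direction. Without C3 they were -0.14 (SE 0.10), -0.14 (SE 0.10), -0.21 (SE 0.13), and -0.03 (SE 0.10), with *sqv-4* and *sqv-1* turned below 0. *sqv-4*, *sqv-1*, and *sqv-7* were lowest in C3 in their table, with 27.4, 22.2, and 17.5, while *gale-1* was highest there, with 38.7.

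The phase I list held the cytochrome P450 genes with symbols starting *cyp-* and the reductase *emb-8*. Of the 52 tested, 3 were at least 1.5 times higher and 2 at least 1.5 times lower, beside 3.33% and 1.68% of all genes. *cyp-33C8* was the lowest, with 24.8 in C1, 9.36 in T1, 8.87 in C2, 8.15 in T2, 7.77 in T3, and 32.8 in C3, and a difference of -1.12 (SE 0.42) with an unadjusted p of 0.0323 in limma. Without C3 its difference was -0.64 (SE 0.25). *cyp-37B1* was the highest, at 0.86 (SE 0.63), with 1.38 in C3 and from 11.4 to 15.4 in the other libraries of its table, and without C3 it was 0.02 (SE 0.18). Without C3, 0 of the list were at least 1.5 times higher and 1 lower, beside 2.5% and 0.684% of all genes.

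Of 38 other conjugation genes, mainly glutathione S-transferases, 2 were at least 1.5 times higher and 4 lower, beside the same 3.33% and 1.68% of all genes. Without C3 these counts were 0 and 1, beside 2.5% and 0.684%. *gst-38* was the lowest, at -1.83 (SE 0.96), with 110.0 in C3 and 6.85 in C2, 3.09 in T2, and 4.58 in T3, and without C3 it was -0.51 (SE 0.23). *gst-35* was the highest, at 0.72 (SE 0.33), with 1.35 in C3 and from 4.66 to 5.57 in the others, and without C3 it was 0.34 (SE 0.20). Of 19 efflux transporters of the P-glycoprotein and MRP families, 0 were at least 1.5 times higher and 1 lower, again beside 3.33% and 1.68%, and without C3 there were 0 in either direction. The lower one was *pgp-8*, with 11.2 in C3 and from 0.197 to 0.638 in the others, and its difference of -0.75 (SE 0.81) turned to 0.36 (SE 0.22) without C3. *mrp-4* was the highest of them, at 0.26 (SE 0.34), and turned to -0.16 (SE 0.14) without C3.

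The share of a list with C3 at least 2 times the others was 9.62% for phase I, 13.2% for other conjugation, and 15.8% for the efflux transporters, with 0 genes of the UDP-sugar supply and 0 regulators, beside the 22.4% of the *ugt* members and the 3.83% of all genes. C3 was at most 0.5 times the lowest of the others in 8 of 52 phase I genes, 3 of 38 other conjugation genes, and 1 of 19 efflux transporters. It was so in 0 genes of the UDP-sugar supply, 0 regulators, and 6.0% of all genes. Phase I thus held more genes low in C3 (8) than high in it (5), as did all genes tested, at 6.0% and 3.83%. Of 13 tested regulators, 0 reached 1.5 times in either direction, and 12 had a difference above 0, beside 55.1% of all genes. Their median was 0.10, and 0.08 without C3. The highest was *nhr-8*, a nuclear receptor needed for resistance to some toxins, at 0.46 (SE 0.32), or 0.58 (SE 0.33) without C3, with 3.57 in C1 and 11.9 in T1 but from 6.97 to 7.70 in the 4 libraries of the second table. The lowest was *nhr-176*, a nuclear receptor linked to the induction of cytochromes P450 by thiabendazole, at -0.07 (SE 0.18), or -0.03 (SE 0.17) without C3.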

How the data were processed

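The authors trimmed and aligned the reads to WBcel235 and deposited the FPKM of each transcript, from Ballgown, in 2 tables with the control and VK2 libraries of the same number together. Per the submitters' processing notes, the tools were cutadapt, HISAT2 2.1.0, StringTie, and STAR 2.5.2b, with no role given for each. No column of the deposited tables held a comparison. The tables were taken as normalized separately, and library sizes are not given in the sources used here.

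Transcript FPKM values were added up by gene. Of genes present in both tables, the 14191 that averaged an FPKM of 1 or more were tested with limma 3.58.1 in R 4.3.3 (two-sided, trend on, robust off) with Benjamini-Hochberg adjustment over all genes. The model held VK2 and table as terms and log2(FPKM + 1) as the response. The fits were tested on simulated data with the same noise SD for every gene and library and no outlying library. That setting differs from these data, so it cannot show how the fits act with C3. Without C3, the second table holds 1 control. Python 3.11.15, numpy 2.4.6, pandas 2.3.3, and matplotlib 3.10.9 were also used. Coordinates are those of the tables in WBcel235, with neighbors and overlaps from Ensembl release 115, which holds 67 *ugt-* symbols, and 5 of these were not listed in either table. Sequences of the members were not analysed here.

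The members and lists were chosen with earlier results of these data known. Named were the 8 highest and 8 lowest differences, members at an unadjusted p below 0.05, the 5 with the highest mean FPKM of each table, and those with no overlap in both tables, which gave 21 members. For each list of other genes, the highest and lowest were named, and all UDP-sugar genes. Other members were named after their values were seen.

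The replicate numbers come from the labels. After group means were removed, Pearson's r across genes was 0.881 between the libraries numbered 1, 0.556 between those numbered 2, and 0.543 between those numbered 3. All were above the minimum of 0.1 set for a pairing, and the replicate block was run as an alternative to the table term. The group means were taken over both tables, so the difference between the tables stayed in these values. It raises r within a table and lowers it across, as in -0.804 between C1 and T2, so the minimum could not test a pairing. Crossed numbers in the second table gave values as high (0.613 and 0.608), and the difference of its controls correlated at -0.111 with that of its VK2 libraries, so a crossed block was added after seeing the data. The other alternatives changed the pseudocount (0.1 or 5), the filter on low genes (none, or an average FPKM of 5), and the scaling (upper quartile or quantile). Others left out the table term, the first table, or each library in turn, or used the replicate block, trend off, robust on, the test in the form Ballgown uses, and 1 transcript per gene.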

Additional observations from a re-analysis of the deposited data

Results flagged for a closer look

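In 3 members that were too low or listed in too few tables to be tested, every VK2 library was above every control library of its table. These are 23.1% of the 13 members not tested, beside 19.5% of the 3208 genes not tested. The lowest FPKM of the VK2 libraries was 0.683 for *ugt-27*, in T3, beside 0.546 in C3, 0.0565 in C2, and 2.1 in T2, with 0.806 in C1 and 0.92 in T1. It was 0.875 for *ugt-37*, listed only in the second table, whose controls were at 0.479 and 0.573 and whose other VK2 library was at 0.912, and this gene overlaps *ugt-40*. It was 0.628 for *ugt-38*, listed only in the first table and at 0 in C1. No test was made of these values.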

How the results depend on the processing

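Under no alternative did a *ugt* gene pass the adjusted p in limma, and the smallest was 0.27, without C2. Of 416 values of the 21 named members over 20 alternatives, 412 kept their direction. The exceptions were *ugt-41* (0.12), *ugt-19* (0.04), and *ugt-62* (0.13) without C3, and *ugt-62* (0.03) without T2, with lowest values of -1.22, -0.83, and -0.66 as each library was left out. The 412 was in part fixed in advance. The design is balanced, so changing the table term, block, trend, robust setting, or form of test could not change a difference. The second table alone and the fits without C1 or T1 gave the same differences as each other. Most named members were also picked for large differences, while the sign of 15 of all 49 members changed without C3. The count at least 1.5 times higher, 1 as given above, was 2 with a pseudocount of 0.1, with no filter, or with the second table alone. The shares of all genes there were 6.9%, 3.25%, and 3.43%. It was 0 with a pseudocount of 5, beside 0.867% of all genes, and from 1 to 2 as each library was left out, beside from 2.5% to 7.73%. The count at least 1.5 times lower, 5 as given above, was 1 with a pseudocount of 5 and 14 with the second table alone, beside 0.634% and 3.51% of all genes. As each library was left out, it was from 0 (without C3, beside 0.684%) to 14 (without C1 or T1, beside 3.51%), with 11 without C2, beside 4.73%. The count at an unadjusted p below 0.05, 1 as given above, was 2 with upper quartile scaling, with the trend off, in the form of the test Ballgown uses, with the replicate block, and with the crossed replicate block. The shares of all genes there were from 2.93% to 4.34%. It was 3 with quantile normalization, beside 3.78%, and 0 with the second table alone, beside 1.4%. As each library was left out, it was from 0 (C1 or T1, beside 1.35%) to 8 (C2, beside 11.2%). The median difference was from -0.21 to 0.04 as each library was left out. The causes were not tested. With the replicate block no other call changed. Depth is unknown, so what it limits cannot be given.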
